A study of Homo sapiens with 20 samples.

Results

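The regions described here are the peaks of an antibody against N4-acetylcytidine (ac4C) in RNA of wild type K562 cells and of K562 cells in which NAT10 had been knocked out. A region was 1 unique interval on 1 transcript in the authors' ac4C-against-input peak lists. The wild type list held 45290 regions and the knockout list 80709, together 125999 of the 248767 regions in the 4 peak lists of the series. A wild type region was called kept when it shared at least 1 base with a knockout region on the same transcript, and lost otherwise. A knockout region without such a partner was called gained.

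K562 is an established human leukaemia line with erythroid features. The knockout cells carried a CRISPR-Cas9 deletion of exon 5 of NAT10, and the wild type cells were their parents. No label says whether the knockout line was 1 clone or a pool. The acetylated-RNA immunoprecipitation (acRIP-seq) used RNA depleted of ribosomal RNA and fragmented to about 100 nt, with 2 libraries per genotype each for input, ac4C antibody and normal rabbit IgG. The libraries of 1 antibody and genotype stand as 1 peak list, so no count of regions below has a replicate error or a test between genotypes.

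NAT10 is the acetyltransferase that makes ac4C, a modified cytidine found in 18S ribosomal RNA and in serine and leucine tRNAs, where the adaptor protein THUMPD1 takes part. Acetylation of mRNA by NAT10 has been described and linked to mRNA stability and translation, and its extent has been debated. An antibody peak is a stretch of transcript with more immunoprecipitated fragments than a background. The IgG lists measure the same in RNA that stuck to a control antibody.

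The ac4C antibody gave more regions in the knockout cells than in wild type, and IgG did the same. The wild type and knockout IgG lists held 45426 and 77342 regions. Of the wild type ac4C regions, 30644 (67.7%) were kept and 14646 (32.3%) were lost. Of the knockout ac4C regions, 38579 (47.8%) overlapped a wild type region and 42130 (52.2%) were gained. In the IgG lists, treated the same way, 62.6% of wild type regions had a knockout partner, 37.4% had none, and 51.7% of knockout regions had no wild type partner. The ac4C share kept was thus 67.7% beside 62.6% for IgG, and the share gained was 52.2% beside 51.7%. Taking the same number of regions from each list, the highest by q, left 44.7% of wild type ac4C regions kept (42.2% for IgG). Requiring a summit of at least 50 fragments in both lists, a setting chosen after seeing the data, left 37.8% (26.3% for IgG). For ac4C both settings left all 45290 wild type regions in place. They cut the knockout list to 45290 and 37173 regions, so the share kept could only fall.

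**Figure D1:**
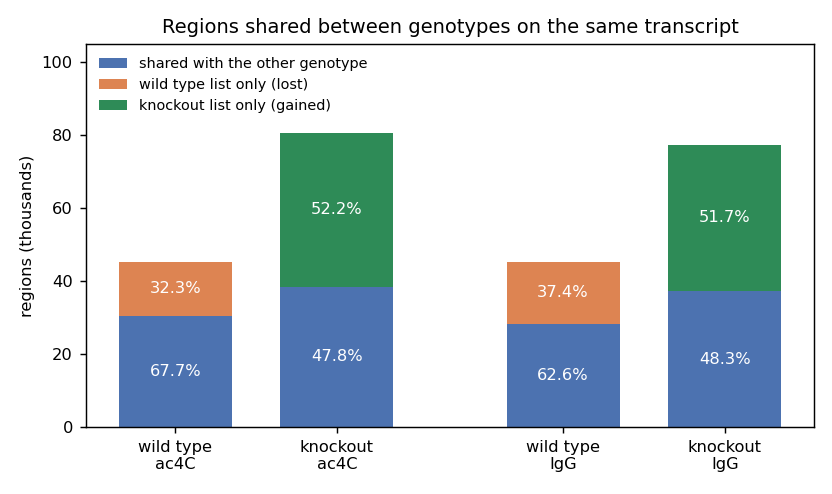
Number of regions (vertical axis, in units of 1000) in each peak list, with bars divided into regions that overlap a region of the other genotype with the same antibody and regions that do not. For ac4C 67.7% of wild type regions were kept and 52.2% of knockout regions were gained, and the IgG bars show 62.6% and 51.7%.

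Few regions lay close to the overlap threshold. Among kept wild type regions, 30 shared at most 10 bases with their partner, and 17 lost regions ended within 10 bases of a knockout region. The median shared stretch was 428 bases. Of the kept wild type regions, 6557 (21.4%) met at least 2 separate knockout regions. In bases, the genotypes shared 57.8% of the wild type ac4C territory and 59.1% of the knockout territory, whose totals were 43038183 and 42105815 bases.

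Most ac4C regions were also IgG regions of the same genotype. Of wild type ac4C regions 93.3% overlapped a wild type IgG region, and of knockout ac4C regions 79.6% overlapped a knockout IgG region. The antibodies were thus closer to each other within a genotype than the genotypes were for the ac4C antibody. The summits, the points of highest coverage, had the same order. Of 92194 wild type ac4C summits 71.2% had a wild type IgG summit within 50 nt, and 28.3% had a knockout ac4C summit within 50 nt. Of 162944 knockout ac4C summits 64.9% had a knockout IgG summit within 50 nt, and 16.0% had a wild type ac4C summit there.

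The values in the lists also show how each list was thresholded. Every fold enrichment of the authors' lists was a whole multiple (within 0.01 of a step) of 1 constant per list. The step was 0.0309 in the wild type ac4C list and 0.104 in the knockout ac4C list. Read by the formula of the MACS2 peak caller, fold as height plus 1 over background plus 1, this gives summit heights in fragments. It also gives 1 constant background per list, 31.4 fragments in wild type ac4C, 8.59 in knockout ac4C, 29.3 in wild type IgG and 6.03 in knockout IgG. The lowest summits listed were 50 and 19 fragments for ac4C and 47 and 15 for IgG. A knockout region could therefore enter the list with fewer fragments than a wild type region. No term that varies with position, such as local input coverage, was visible in the folds, and whether input set the constant cannot be read from the lists. Genotype and library set cannot be told apart for any count of regions.

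RNA levels and translation were measured in separate libraries and were not used to choose the regions. RNA-seq had 10388717 to 18778485 counts per library and ribosome profiling 621287 to 1220308. The 2 knockout RNA-seq libraries differed by little more than counting noise (chi-square 1.03 per degree of freedom, 12.5 for the wild type pair) and were summed as 1 sample. No label ties the replicates to separate cultures, so a p-value here speaks of library-to-library spread, which may be technical. With the knockout pair summed, the spread in the RNA test came from the wild type pair alone. Genes were called with edgeR's quasi-likelihood test at a Benjamini-Hochberg adjusted p under 0.05. Of 16277 tested genes 14.0% were called, 5.17% higher and 8.79% lower in knockout, and members are read against these shares. The number called, 2271, was 1039 with DESeq2, and 6761 or 7003 without wild type replicate 1 or 2.

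Wild type regions were long and often ran over most of a transcript, and knockout regions were shorter. The median length was 632 nt in wild type and 306 nt in knockout, and the shortest region was 236 and 140 nt. A wild type region covered a median of 50.2% of its transcript and a knockout region 14.4%. At least 90% of the transcript lay in 1 region for 14.4% of wild type and 4.28% of knockout regions. The IgG medians were 623 nt in wild type and 296 nt in knockout. The transcript NAT10 itself was an example (ENST00000257829.8, 3973 nt). Wild type had 1 region from base 19 to base 3930 of it, while knockout had 3, at 65 to 1721, 1975 to 3094 and 3350 to 3852. Wild type IgG covered it from base 16 to base 3933.

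Lost regions were the shorter and lower regions of the wild type list. Their median length was 453 nt, against 777 nt for kept regions, and they covered a median of 35.9% of their transcript against 60.4%. Their median summit height was 93 fragments against 196, and the median RNA level of their gene was 44.6 counts scaled to library size (CPM) against 100.2. With the wild type regions split by height into 4 equal bins, 43.5% were kept in the lowest bin, then 55.2% and 75.3%, and 96.6% in the highest. Of the lost regions 82.5% lay on genes that had a knockout region elsewhere, and 20.9% on transcripts that had one. In wild type IgG 86.8% of lost regions were present.

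Gained regions were short, with the same median height as the other knockout regions. Their median length was 258 nt against 430 nt for knockout regions shared with wild type, and both had a median height of 46 fragments. From the lowest to the highest of 4 such bins of knockout regions, the gained share was 53.9%, 50.9%, 54.0% and 50.0%. They lay on longer transcripts, with a median of 3184.5 nt against 2186 nt. Of the gained regions 50.8% lay on genes with a wild type region. In knockout IgG 78.4% of gained regions were present, and in wild type IgG 3.66% were.

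**Figure D2:**
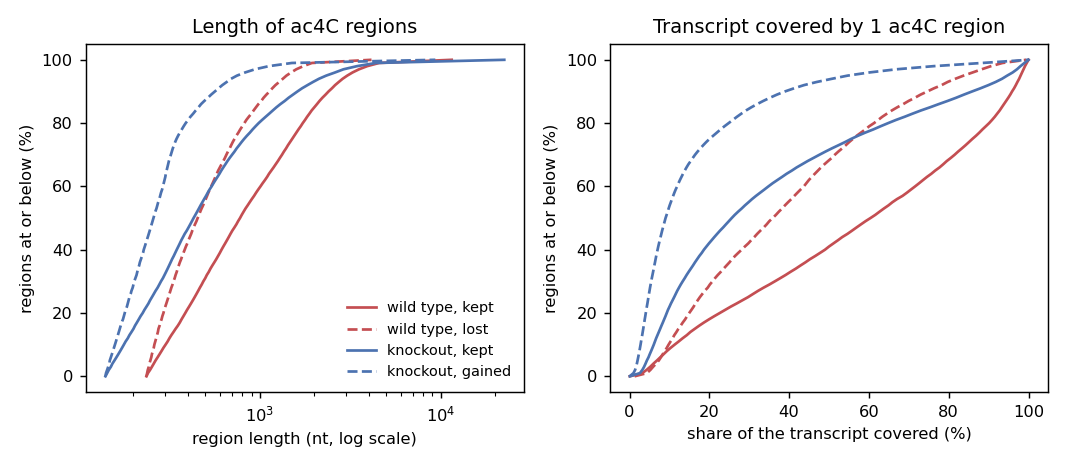
Share of ac4C regions (%) at or below a given length (left, nt on a log scale) and at or below a given share of the transcript covered (right, %), for wild type regions kept or lost and knockout regions kept or gained. Median lengths run from 777 nt for kept wild type regions through 453 nt for lost ones and 430 nt for knockout regions shared with wild type to 258 nt for gained ones.

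By annotated biotype, long non-coding RNAs held a larger share of the gained than of the other knockout regions, and protein-coding transcripts a smaller one. Protein-coding transcripts held 62.3% of kept and 58.7% of lost wild type regions, and 65.4% of shared and 44.2% of gained knockout regions. Long non-coding RNAs held 4.33% of kept and 4.25% of lost regions, 3.67% of shared knockout regions and 20.8% of gained ones. Of 10182 knockout regions on long non-coding RNAs 86.1% were gained, against 42.5% of 43849 on protein-coding transcripts. Retained-intron transcripts held 15.1% of kept and 17.0% of gained regions. In IgG long non-coding RNAs held 21.9% of gained regions, beside the 20.8% for ac4C.

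Regions on small structured RNAs lay almost wholly in the knockout lists. The wild type ac4C list had 0 regions on small nucleolar RNAs, 6 on transcripts of the miscellaneous class, which holds 7SL and 7SK copies, and 1 on small nuclear RNAs. The knockout ac4C list had 30, 253 and 32. The knockout IgG list had 25, 253 and 31. The shortest ac4C region listed was 236 nt in wild type and 140 nt in knockout, so short RNAs could enter the wild type list less readily. The part of this length floor in the counts was not tested. RN7SL1, RN7SK and RN7SL2 were among the RNAs with a wild type ac4C region, with folds of 135, 127 and 112.

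The highest regions of each list were on different kinds of RNA in the genotypes and on the same kinds for both antibodies. This look at the 20 genes with the highest fold in each list was chosen after the values were seen. In wild type ac4C the highest were the embryonic and fetal globins HBE1, HBG2 and HBG1 with folds of 629.1, 585 and 536, then RPS12, a small-subunit ribosomal protein, with 532. In knockout ac4C they were RN7SL1, the RNA of the signal recognition particle, with a fold of 1499, and RN7SK, an RNA that restrains transcription elongation, with 1496. RPPH1, the RNA of ribonuclease P, had 955 and RMRP, the RNA of ribonuclease MRP, 602. Of the 20 leading genes 19 were shared between wild type ac4C and wild type IgG, and 12 symbols between knockout ac4C and knockout IgG. Only 1, the ferritin light chain gene FTL, was shared between wild type and knockout ac4C.

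RN7SL1 was kept, with a fold of 135 in wild type and 1499 in knockout, each against its own list's background. The RNA-seq level of RN7SL1 was 21810 and 26820 CPM in wild type and 30721 and 30486 CPM in knockout, with an edgeR adjusted p of 0.175 (log2 change 0.33, SE 0.14). H4C3, a replication histone whose mRNA ends without a poly(A) tail, had a fold of 6.99 in wild type ac4C and 264 in knockout ac4C. In IgG its folds were 7.32 and 160. Other replication histones differed less between the ac4C lists. The wild type and knockout folds were 230 and 347 for H1-2, and 278 and 282 for H2BC12. The RNA-seq level of H4C3 was 666 and 631 CPM in wild type and 643 and 651 CPM in knockout. The RNA-seq libraries of the genotypes thus overlapped for H4C3, while its place within the 2 ac4C lists was far apart.

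By gene, the lists gave 8828 genes with ac4C regions in both genotypes, 830 in wild type only and 9432 in knockout only. IgG gave 8730, 1164 and 9010. Of the 830 genes with ac4C regions in wild type only, 784 had a wild type IgG region, 102 had a knockout IgG region and 44 had neither. Of the 9432 in knockout only, 8601 had a knockout IgG region, 366 a wild type IgG region and 809 neither. Genes in both lists had a median RNA level of 47.9 CPM over the 4 RNA-seq libraries, wild type only genes 9.86 CPM and knockout only genes 0.152 CPM. No RNA-seq library had a count for 2117 of the knockout only genes. A count of 0 does not show that the RNA was absent. EEF1G, with ac4C regions in both genotypes, had 0 RNA-seq counts in every library but 309 to 484 CPM in ribosome profiling.

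Whether a gene had an ac4C region went with its RNA level in both genotypes. Among genes above 64 CPM 92.0% had a wild type ac4C region and 98.3% a knockout one. Among genes above 8 and up to 64 CPM the shares were 64.6% and 79.8%, and above 1 and up to 8 CPM 20.0% and 47.6%. Among genes without an RNA-seq count, which does not show absent RNA, they were 1.71% and 10.3%. The IgG shares in the same order were 92.4% and 97.6%, 66.1% and 75.9%, 21.3% and 45.2%, and 1.72% and 10.3%. Across genes with a region, Spearman's correlation of the highest summit with RNA level was 0.40 in wild type ac4C (9137 genes) and 0.21 in knockout ac4C (15202 genes), given as a description since the genes of a list share its libraries.

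**Figure D3:**
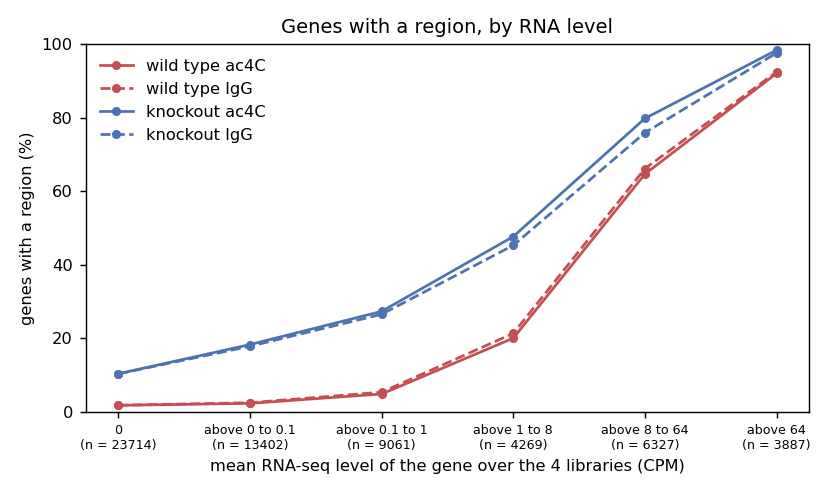
Share of genes with at least 1 region (%, vertical axis) by mean RNA-seq level (CPM, horizontal axis), for the ac4C lists (solid) and the IgG lists (dashed) of wild type (red) and knockout (blue). The ac4C and IgG lines of a genotype lie close together, and at 0 CPM 1.71% of genes had a wild type and 10.3% a knockout ac4C region.

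A minority of ac4C regions had no IgG region of the same genotype. These were 3017 in wild type (6.66% of the list, on 1919 genes) and 16427 in knockout (20.4%, on 6777 genes). They were low and short, with median heights of 66 and 28 fragments and median lengths of 287 and 197 nt. Of the 3017 wild type regions 1087 (36.0%) overlapped a knockout ac4C region, against 69.9% of the other wild type regions. Of the 16427 knockout regions 7346 (44.7%) overlapped a wild type ac4C region. Of the same 3017 regions, 10.1% overlapped a knockout region that was itself free of IgG.

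These regions lay nearer to the 5′ end than regions of IgG alone, in both genotypes. The position was looked at after the values were seen. On protein-coding transcripts 42.2% of knockout ac4C regions without IgG had their summit in the 5′-most of 3 equal parts of the transcript, and 26.9% in the 3′-most part. Knockout IgG regions without an ac4C region showed the opposite, with 20.7% and 49.0%. In wild type the ac4C shares were 29.9% and 34.2%, and the IgG shares 22.7% and 43.0%. Regions found with both antibodies differed little by antibody, with 28.9% of knockout ac4C and 28.1% of knockout IgG summits in the 5′ part. Of the knockout ac4C regions without IgG 15.7% began in the first 100 nt, against 2.31% of knockout IgG regions without ac4C. The wild type shares were close, at 6.63% and 4.72%. Among knockout regions found with both antibodies, 21.1% of ac4C and 15.5% of IgG regions began there. With 1 transcript per gene, regions without the other antibody had their summit in the 5′ part in 45.4% (ac4C) and 20.6% (IgG) of knockout cases. The wild type shares, 37.9% for ac4C and 23.0% for IgG, had the same order. The difference between the antibodies was present in the cells without intact NAT10, where it was 21.5 percentage points, and in wild type, where it was 7.18 points (14.9 with 1 transcript per gene).

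**Figure D4:**
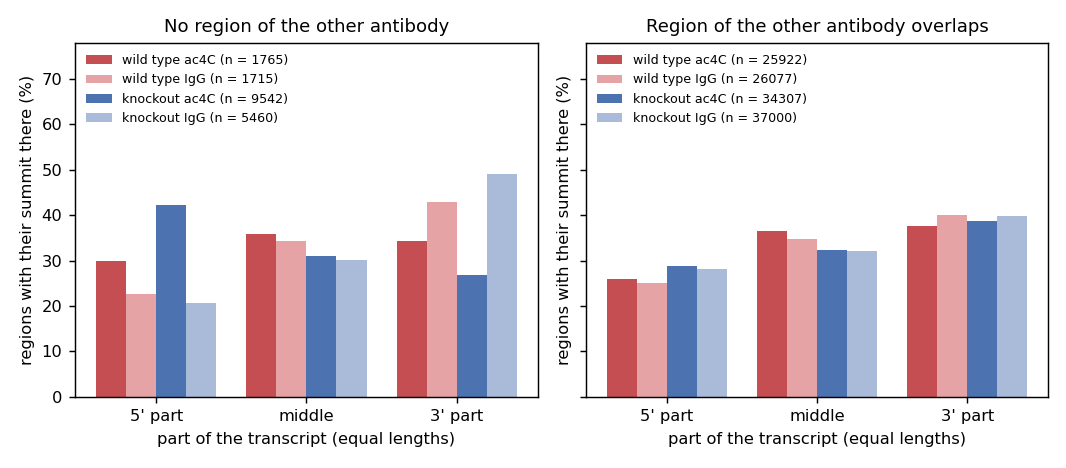
Share of regions on protein-coding transcripts (%, vertical axis) with their summit in the 5′, middle or 3′ part of the transcript, for regions without (left) and with (right) an overlapping region of the other antibody in the same genotype. On the left 42.2% of knockout ac4C and 20.7% of knockout IgG regions sit in the 5′ part.

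The kept regions named here, free of IgG in both genotypes, had folds from 2.94 to 4.76 in wild type and 2.71 to 4.59 in knockout, beside medians of 4.33 and 4.90 over all regions of the lists. Among genes of at least 8 CPM with a kept region free of IgG in both genotypes, the highest was EXOSC5, a subunit of the RNA exosome. Its region spanned bases 12 to 253 of ENST00000593771.1 (404 nt) in wild type, with a fold of 4.76, and bases 43 to 183 in knockout, with a fold of 3.65. DCTN4, a dynactin subunit, had bases 68 to 339 of ENST00000446090.6 (1737 nt) in wild type and 100 to 328 in knockout. CAD, the enzyme that begins pyrimidine synthesis, had bases 654 to 898 of ENST00000428460.1 in wild type and 682 to 898 in knockout. SLC43A3, PDE4DIP, NAE1 and NCAPH2 had folds from 3.00 to 3.12 in wild type. The genes of these regions had IgG regions on other stretches or other transcripts.

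Regions free of IgG on wild type only genes were led by PRR7, at bases 799 to 1181 of ENST00000502922.5 (1345 nt) with a fold of 3.93. RANGRF, SMCO4, CCDC174, DEXI, TBCB, FOXD1 and SMARCE1 followed, with folds from 2.84 to 3.12. FOXD1, a forkhead transcription factor, was the only one of the 8 without an IgG region anywhere, and its level was 13.5 and 9.90 CPM in wild type and 8.01 and 8.04 CPM in knockout. The edgeR adjusted p of FOXD1 was 0.140 (log2 change -0.53, SE 0.21). None of these 8 genes passed the RNA test, beside 14.0% of all tested genes.

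The 7 regions free of IgG on knockout only genes described here had folds from 5.94 to 7.92, and 4 of them began in the first 100 nt. They were picked for their high folds, so these say nothing of the class. The median fold was 3.02 over all knockout ac4C regions without IgG and 4.90 over the list. GNB4, a G protein beta subunit, had bases 145 to 336 of ENST00000497513.1 (571 nt) with a fold of 7.92. ATAD2B had bases 55 to 237 of ENST00000238789.10 (8112 nt), CHD7, a chromatin remodeller, bases 84 to 307 of ENST00000423902.7 (11606 nt), and NEK6, a mitotic kinase, bases 32 to 246 of ENST00000320246.10 (3468 nt). MIA2 had bases 60 to 216 of ENST00000557148.5 (554 nt). COG6 and UBXN11 had theirs at bases 3070 to 3519 and 2072 to 2232. Among these 7 genes GNB4 passed the RNA test, at 47.6 and 45.2 CPM in wild type and 60.7 and 59.0 CPM in knockout, with an edgeR adjusted p of 0.0321 (log2 change 0.37, SE 0.090). With DESeq2 its adjusted p was 0.288.

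NAT10 and its adaptor gene THUMPD1 had 10 wild type ac4C regions, of which 90% were kept. THUMPD1 had 5 wild type and 10 knockout ac4C regions. NAT10 had 5 and 13, and its IgG lists held 5 and 14. The RNA of NAT10 was 139 and 144 CPM in wild type and 49.9 and 49.3 CPM in knockout. Of 44 RNA modification enzymes 32 had regions in both genotypes, 8 in knockout only (18.2%) and 3 in wild type only (6.82%), where all genes gave 15.6% and 1.37%. Over all genes 68.5% had no ac4C region and the median RNA level was 0.0276 CPM, beside 62.1 CPM for these enzymes. Among 6327 genes above 8 and up to 64 CPM, 1395 were in knockout only and 438 in wild type only. These enzymes kept 69.6% of 191 wild type regions, close to the 67.7% over all genes. The 8 in knockout only included FTO, an RNA demethylase, METTL14, a subunit of the m6A methyltransferase, and YTHDF3, an m6A reader. FTO had 9 knockout ac4C regions and 8 knockout IgG regions, at 36.0 and 36.7 CPM in wild type and 41.3 and 39.9 CPM in knockout. METTL1, ELP3 and TRMT6, which modify tRNA, were in wild type only.

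Ribosomal protein genes kept nearly all of their regions, and translation factors most of them. All 78 cytosolic ribosomal protein genes had ac4C regions in both genotypes, and 99.0% of their 709 wild type regions were kept. RPS12 had 1 region over bases 1 to 539 of the wild type list and 13 to 507 of the knockout list on ENST00000230050.4 (503 nt), so both ran past the annotated end, as did 158 wild type (0.349%) and 3105 knockout (3.85%) ac4C regions in all. All 78 also had IgG regions in both genotypes. Among 44 translation factors 43 had regions in both, and 89.1% of 561 wild type regions were kept. Splicing factors and hnRNP proteins had 41 of 41 genes in both, with 91.3% of 607 regions kept. Of 20 aminoacyl tRNA synthetases 19 were in both, with 75.8% kept, and of 48 ribosome biogenesis genes 45, with 88.3% kept. These shares stand beside 67.7% over all genes, and 96.6% in the highest of 4 height bins of wild type regions. The median RNA level of the ribosomal protein genes was 548 CPM. No family was matched for height or RNA level.

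Red cell membrane and heme synthesis genes kept a smaller share of their regions than the 67.7% over all genes, and erythroid regulators a larger one. Of 28 red cell membrane genes 22 had regions in both genotypes, and 54.4% of 182 wild type regions were kept. Of 20 heme synthesis genes 15 were in both, and 54.6% of 152 regions were kept. ALAS2, the erythroid first enzyme of heme synthesis, and PPOX were in wild type only, ALAD and FLVCR1 in knockout only. Erythroid regulators had 22 of 27 genes in both and 77.6% of 147 regions kept, with BACH1, ETV6, IKZF1, JAK2 and SOX6 in knockout only. GATA1, the master regulator of the lineage, had 3 regions in each list, and the wild type one with the highest fold covered bases 3 to 1463 of ENST00000376670.9 (1464 nt). Globins had 7 of 10 genes in both, HBM in knockout only and HBD in wild type only. In the RNA test, beside 5.17% higher and 8.79% lower over all genes, 6 of 8 measured globins, 7 of 26 red cell membrane genes and 5 of 19 heme synthesis genes rose, and 0, 4 and 1 fell.

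Replication histones and mitochondrial genes lost none of their wild type regions. Of 53 replication-dependent histone genes 37 had regions in both genotypes and 7 in knockout only, and 100% of 54 wild type regions were kept. All 15 mitochondrially encoded genes were in both, and 100% of their 15 regions were kept. DNA replication genes kept 89.2% of 259 regions, chaperones 88.2% of 279, mitosis genes 83.1% of 154 and glycolysis genes 82.9% of 217. Host genes of small nucleolar RNAs kept 67.6% of 241. Of the marker genes, 13 of 15 erythroid and K562 markers had regions in both genotypes. Of 8 granulocyte and monocyte markers 2 did, of 8 megakaryocyte markers 2, of 7 fibroblast and epithelial markers 3, and of 6 lymphocyte markers 0. The summed level of the 8 granulocyte and monocyte markers was 100.7 to 106.7 CPM in wild type and 39.5 to 41.9 CPM in knockout, with FCGR2A, ITGAM and LYZ called lower and the defining markers MPO and ELANE under 1 CPM in every library. The 8 megakaryocyte markers summed to 68.5 to 78.4 CPM in wild type and 40.8 to 43.3 CPM in knockout, with GP6 and ITGA2B called lower and PF4 and PPBP at 0 counts. The fibroblast and epithelial markers summed to 354 to 381 CPM in wild type and 258 to 263 CPM in knockout. For the lymphocyte markers the sums were 7.47 to 7.51 and 4.53 to 4.85 CPM. The erythroid and K562 markers went the other way, with 1688 to 1731 CPM in wild type and 2010 to 2042 CPM in knockout. The part of these markers in the differences between the lists was not tested.

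Of the 6 non-coding genes with the most ac4C regions, 5 had more in knockout, in the ac4C and the IgG lists alike. The whole knockout ac4C list was also longer, with 80709 regions beside 45290, and 10182 beside 1951 on long non-coding RNAs. XACT, a long RNA that coats the X chromosome, had 12 wild type and 156 knockout ac4C regions, and 17 and 158 IgG regions. HELLPAR had 14 and 77 ac4C regions, and 15 and 81 IgG regions. XIST, the RNA of X inactivation, had 4 and 86, with 5 and 96 for IgG. MEG3 had 55 and 81, with 56 and 87 for IgG. The RNA of XACT was 13.8 and 12.7 CPM in wild type and 42.1 and 44.7 CPM in knockout, and it rose with an edgeR adjusted p of 0.000244 (log2 change 1.72, SE 0.12). The RNA of XIST rose too, with an edgeR adjusted p of 0.00144 (log2 change 0.67, SE 0.074). That of HELLPAR was 5.49 and 4.64 CPM in wild type and 7.30 and 5.91 CPM in knockout, with an edgeR adjusted p of 0.290, and that of MEG3 did not pass either (log2 -0.07, edgeR adjusted p = 0.680). SNHG5 and SNHG29, hosts of small nucleolar RNAs, had 39 and 33 wild type and 37 and 38 knockout ac4C regions, and SNHG29 had 32 and 36 IgG regions. The RNA of SNHG5 fell, with an edgeR adjusted p of 0.0160 (log2 change -0.51, SE 0.10).

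The median RNA change was small in each of the 3 ac4C classes, with both directions called. Of 679 tested genes with ac4C regions in wild type only, 26 rose and 69 fell (14.0%), with a median log2 fold change of 0.01. Over all tested genes 14.0% were called, with 5.17% higher and 8.79% lower in knockout. Of 7978 genes with regions in both genotypes 565 rose and 868 fell (18.0%), with a median of 0.02. Of 3534 in knockout only 141 rose and 229 fell (10.5%), with a median of -0.02, and of 4086 tested genes in neither list 9.13% were called. The IgG classes gave 14.2% for wild type only, 17.7% for both and 11.0% for knockout only.

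The interaction of assay and genotype, which measures translational efficiency (footprints relative to RNA), gave 1 call among 8821 genes, 0.0113%. It was TEDC2, a centriole protein gene with ac4C and IgG regions in wild type only, with an edgeR adjusted p of 0.0390 (log2 change -1.42, SE 0.19). TEDC2 was not called when any of the 4 library sets with a replicate left out was used, nor by DESeq2. It was called in edgeR with the size factors of DESeq2, without the filter, and with the knockout libraries kept apart. Before adjustment 877 genes had a p under 0.05, and DESeq2 called 12. Median log2 changes in efficiency were -0.11 for 424 wild type only genes, -0.07 for 6579 in both and 0.09 for 1256 in knockout only, beside -0.05 over all genes. The IgG classes had -0.13, -0.07 and 0.10.

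**Figure D5:**
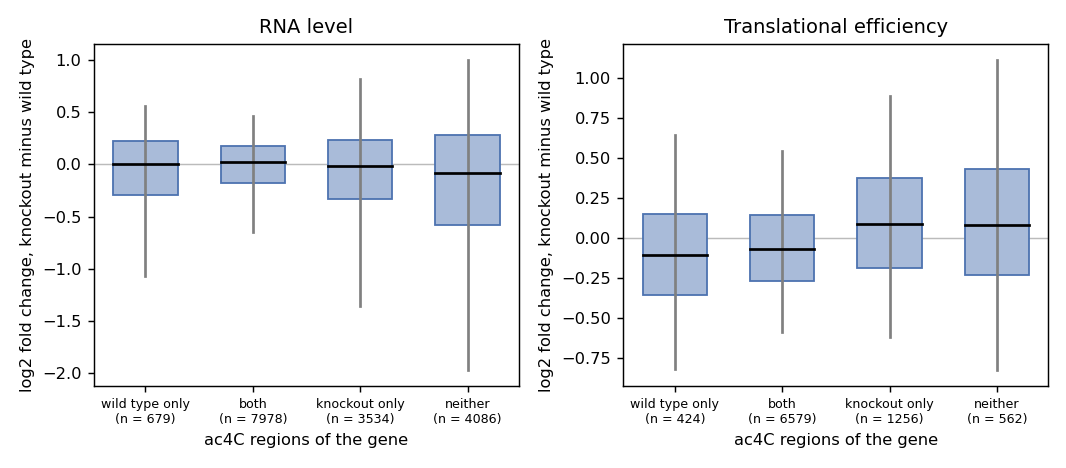
Log2 fold change, knockout minus wild type (vertical axis), of RNA level (left) and translational efficiency (right) for genes grouped by the genotype in which they had ac4C regions. The line is the median, the box the middle 50% of genes and the bar the 5th to 95th percentile, which show the spread over genes and not an error, and RNA medians of the 3 classes with regions lie between -0.02 and 0.02.

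For some genes the appearance or loss of a region came with a change in RNA. CPVL, a carboxypeptidase gene, had 6 ac4C regions in wild type and 0 in knockout, and 5 and 0 IgG regions. Its RNA was 9.14 and 10.4 CPM in wild type and 0.442 and 0.586 CPM in knockout, and it fell with an edgeR adjusted p of 0.000277 (log2 change -4.23, SE 0.31). GRID1 (log2 change -4.12) and RBPMS2, an RNA-binding protein gene (log2 change -3.13), also fell, each with 1 wild type ac4C region. GRID1 also had 1 wild type IgG region. RBPMS2 had no IgG region in either genotype, but its ac4C region lay at the floor of the wild type list. Its height of 50 fragments and fold of 1.58 were the lowest that list held. HMGA2, a chromatin protein of fetal cells, had 3 ac4C and 6 IgG regions, all in knockout. Its RNA was 1.16 and 1.02 CPM in wild type and 52.5 and 51.9 CPM in knockout, and it rose with an edgeR adjusted p of 9.18e-06 (log2 change 5.58, SE 0.17). LINC02055 had 45 knockout counts and 0 in wild type, with 4 ac4C and 3 IgG regions in knockout. AC106744.2, with 1 knockout region, had 66 knockout counts and 1 in wild type. That region shared 164 bases with knockout IgG. In these 6 genes the ac4C regions were in the genotype with more RNA, and in the 6 genes below in the genotype with less. This split is not a result. The naming rule took the 3 largest called rises and the 3 largest falls in the wild type only and in the knockout only class.

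In other genes the 2 readouts ran in opposite directions. HBD, the delta globin gene, had 4 ac4C regions in wild type and 0 in knockout, with the same counts for IgG. Its RNA was 2.02 and 2.99 CPM in wild type and 9.73 and 8.31 CPM in knockout, and it rose with an edgeR adjusted p of 0.00455 (log2 change 1.83, SE 0.27). The long non-coding RNAs AL359504.1 and AC012087.2, also wild type only, rose as well (log2 changes 1.78 and 1.46), but DESeq2 gave adjusted p = 0.359 and 0.329, and AL359504.1 had an edgeR adjusted p of 0.0710 without knockout replicate 1. OSBPL10, an oxysterol-binding protein gene, had 5 ac4C and 6 IgG regions, all in knockout, while its RNA counts were 69 summed in wild type and 1 in knockout, a ratio of 110 (19.1 to 4410 by the exact 95% interval, counting error only). AL359504.1 and AC012087.2 each had 1 wild type IgG region. GGT5 had 63 counts in wild type and 1 in knockout with 2 knockout ac4C regions. Its highest region and that of ARHGAP15, the next gene, shared 336 and 206 bases with knockout IgG. ARHGAP15 had 1 knockout region and 5.20 and 5.19 CPM in wild type against 0.111 and 0.107 CPM in knockout, and it fell with an edgeR adjusted p of 0.000551 (log2 change -5.50, SE 0.47).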

How the data were processed

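The ac4C and IgG peak lists are narrowPeak files on transcript coordinates, 1 per antibody and genotype, made against input per the peak names in the deposited files, with the libraries of a group in 1 list. The submitters' processing notes name Bowtie2, MACS2 and GRCh38.p13 without roles. Columns hold the authors' fold enrichment, the authors' −log10 p and −log10 q, and a deposited score that equals 10 times −log10 p. Repeated intervals were merged into regions, and positions are given from base 1 of the transcript. RNA-seq and Ribo-seq gene counts were deposited as whole numbers. The tests used TMM scaling, the filterByExpr filter and the quasi-likelihood F test of edgeR 4.0.16 (R 4.3.3) with Benjamini-Hochberg adjustment, and DESeq2 1.42.0 as an alternative. With the knockout RNA-seq pair summed, 1 residual degree of freedom was left for RNA. On simulated counts the RNA test (14469 genes) recovered 72% of genes changed by 1 and 96% changed by 2 on the log2 scale, and the efficiency test (10841 genes) 42% and 86%. CPM values use library totals, and 44 Y pseudoautosomal identifiers were left out of the tests. No source used here gives the counting strand, so overlapping and antisense genes are uncertain, as are globin and 7SL copies.

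Genes were named by a rule: NAT10, the 8 highest by fold in each ac4C class among regions free of IgG (2 of these genes are not reported here), up to 3 per gene list, 6 non-coding genes with the most regions, and the 3 largest called RNA rises and falls in the wild type only and knockout only classes. Members, lists and tests were chosen with earlier results of these data known. Alternatives changed the overlap, thresholds, transcripts and expression limit, and for RNA the scaling, filter, tool, libraries and replicate block. Replicate numbers did not pair the libraries by any label.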

Additional observations from a re-analysis of the deposited data

How the results depend on the processing

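The share of wild type ac4C regions kept, 67.7%, was 41.6% when 50% of both regions had to overlap, 64.2% at −log10 q of at least 5, 71.3% at a fold of at least 3, 44.7% with the same number of regions from each list (the highest by q), 10.1% among regions free of same-genotype IgG in both lists, 77.0% with 1 transcript per gene and 68.4% for genes of at least 8 CPM. The share of knockout regions gained, 52.2%, was 76.6%, 52.7%, 59.0%, 51.7%, 98.1%, 63.5% and 42.0% under the same settings. Further settings were chosen after seeing the data. A height of at least 50 fragments in both lists gave 37.8% kept. This limit, like equal lists, removed knockout regions only. Transcripts with a region in both lists gave 90.9% kept and 21.7% gained. Highest summits within 50 bases gave 20.5% kept and 88.5% gained. Genes with ac4C regions in wild type only numbered 1992 with equal lists, 2540 at a height of at least 50 and 452 at 8 CPM or more, against 830. Those in knockout only numbered 1655 at 8 CPM or more and 5622 among regions free of IgG, where 1155 genes were in both.

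RNA calls (841 up, 1430 down) were 3513 without a filter (1925 up, 1588 down), 1039 with DESeq2 (286 up, 753 down) and 5476 with the knockout libraries kept apart (2423 up, 3053 down). With the replicate block there were 4983 (2153 up, 2830 down). Leaving out each library gave 2077 to 7003 calls, 751 to 3422 up and 1326 to 3724 down; without a wild type library, 6761 or more, the spread came from the near-identical knockout pair alone. Efficiency calls (0 up, 1 down) were 81 without a filter (32 up, 49 down), 12 with DESeq2 (8 up, 4 down), 17 with the libraries apart (15 up, 2 down) and 319 with the replicate block (247 up, 72 down), and 0 to 20 when a library was left out (0 to 20 up, 0 to 1 down). Replicate numbers are not a pairing: same-numbered deviations correlated at -0.01 in RNA-seq and 0.23 in Ribo-seq. Of the other alternative values, 1330 counted as the same and 88 moved. Another 147 passed where the reported value had not, 12 no longer passed and 1 reversed. For a gene, the same meant no change in whether it passed, and a change of sign counted as the same where neither value passed. For counts, shares and medians it meant staying within a set margin. The reversal was TOP2A, whose log2 change of 0.02 ranged from -0.072 without wild type replicate 1 to 0.10 without wild type replicate 2. The pooled lists have no depth per library, so regions absent from a list are not shown to be absent from the RNA.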
